A study of Mus musculus with 6 samples.

Results

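The 10 genes described here belong to the endocannabinoid system: the cannabinoid receptor gene Cnr1, and the genes of 9 enzymes that make or break down endocannabinoids (Dagla, Daglb, Mgll, Faah, Napepld, Abhd6, Abhd12, Naaa and Gde1). They were chosen by name, and all 10 were found, 1 Ensembl identifier each, among the 60354 features listed for every mouse. RNA-seq was performed on the whole brains of 3 mice on the control diet (control mice 2, 5 and 10) and 3 on the PLDP diet (numbered 17, 22 and 26), all male C57BL/6NCrSlc animals without a genetic change, which were 16 weeks old when feeding began. The PLDP mice were fed PLDP, a protease-treated porcine liver product, at 20% of a modified AIN-93M feed for 16 weeks, and the control mice received a modified AIN-93M diet with adjusted calories for the same time. All 6 mice then went through the same behavioral tests, during which the PLDP diet was not given, and RNA was taken afterwards. Each library is 1 mouse, so the errors below are between animals. The comparison asks whether brain expression of these genes differed between the diets.

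Endocannabinoids are lipid messengers that neurons make on demand and that act backwards across the synapse. The postsynaptic cell releases 2-arachidonoylglycerol (2-AG), made by the diacylglycerol lipases, or anandamide, an N-acylethanolamine made from membrane phospholipid. Both bind the CB1 receptor on the presynaptic terminal, where transmitter release is lowered, and are then hydrolyzed by separate sets of enzymes. The system is known in the brain for its part in synaptic plasticity, anxiety, feeding and movement.

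None of the 10 genes differed between the diets at the threshold used, an unadjusted p under 0.05 in edgeR's quasi-likelihood test. Over all 18580 features tested, 8.6% passed that threshold, 4.91% being higher under PLDP and 3.69% lower. The smallest unadjusted p of the 10 genes was 0.0915, for Dagla, and their smallest Benjamini-Hochberg adjusted p was 0.644. DESeq2, limma voom and edgeR's likelihood ratio test also called 0 of the 10. The median log2 fold change of the 10 genes was 0.021, with 6 values above 0 and 4 below, and the median over all features tested was -0.00062. Their absolute log2 fold changes had a median of 0.061, against 0.074 over all features. The 95% confidence intervals of the single genes reached at most from -17.2% to 16.9% as a change under PLDP.

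Depth was similar between the diets, with 20526120 to 22112008 counts per control mouse and 18797061 to 23938729 per PLDP mouse. All 10 genes passed the filter on low counts, and each had between 243 and 5883 counts in a mouse. The neuronal markers Snap25, Syt1, Rbfox3 and Stmn2 were measured in every mouse, as were markers of astrocytes, oligodendrocytes and microglia. Of 9 markers of brainstem and spinal cord, 8 passed the unadjusted threshold and all 8 were lower in the PLDP mice, with Slc6a5, Glra1 and Hoxb3 having the smallest p. Their summed level was 159.1 to 172.8 CPM (TMM-scaled counts relative to library size) in the control mice and 87.8 to 123.2 CPM in the PLDP mice, with no marker at 0. The summed levels of the striatal, cerebellar and GABA interneuron markers overlapped between the diets, with 0 of 7, 0 of 6 and 0 of 6 genes called. Those of the cortical and hippocampal projection neuron markers did not, at 1700 to 1813 CPM in the control mice against 1843 to 1904 CPM under PLDP, with 1 of 5 genes (Nrgn) called higher. Choroid plexus markers had 2 of 5 genes lower, oligodendrocyte markers 2 of 6 lower, endothelial markers 2 of 5 higher, and astrocyte and microglia markers 1 of 6 lower each. The choroid plexus sums (733.9 to 790.3 CPM against 575.9 to 731.0 CPM under PLDP) and the endothelial sums (173.4 to 176.1 CPM against 176.5 to 191.9 CPM) did not overlap either. The part of these differences in the values below was not tested. In whole-brain RNA, fewer cells of a type and less RNA per cell cannot be told apart.

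Cnr1 encodes CB1, the main cannabinoid receptor of neurons (ENSMUSG00000044288, chromosome 4 of GRCm38 from 33924593 to 33948831, plus strand, with no other annotated gene overlapping it). It had 163.6, 155.9 and 167.8 CPM in control mice 2, 5 and 10, and 164.7, 167.0 and 162.4 CPM in PLDP mice 17, 22 and 26. The 3 PLDP values all lay inside the control range. Cnr1 averaged 162.4 ± 6.03 CPM in the control mice and 164.7 ± 2.29 CPM under PLDP (SD, n = 3). The fitted log2 fold change was 0.020 (SE 0.042, adjusted p = 0.937 by edgeR), with a 95% confidence interval from -0.068 to 0.11, a change of -4.59% to 7.76%. Of the 10 genes, only Faah had a smaller spread over the 6 mice, with coefficients of variation of 2.6% for Cnr1 and 2.32% for Faah.

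**Figure D1:**
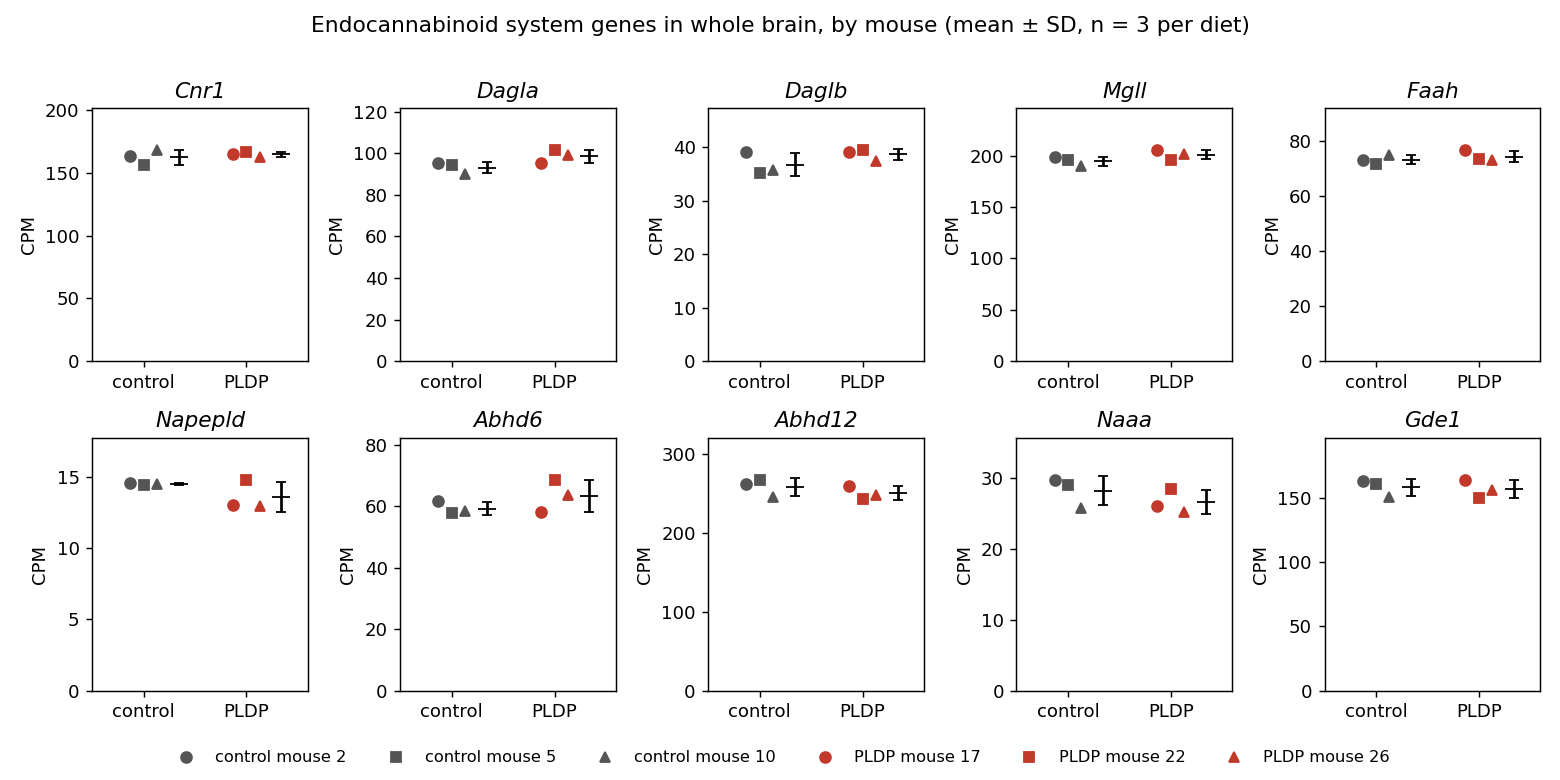
CPM (linear axis from 0) of each of the 10 genes, with 1 point per mouse, control mice in grey and PLDP mice in red; the bars beside the points are the mean ± SD of 3 mice. Only for Dagla do the 3 PLDP mice (95.22 to 101.4 CPM) all lie above the 3 control mice (90.0 to 95.15 CPM).

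Dagla and Daglb encode the diacylglycerol lipases that form 2-AG, and the alpha enzyme is known as the one that serves retrograde signaling in the adult brain. Dagla (ENSMUSG00000035735, chromosome 19 from 10245265 to 10304877, minus strand) had 95.2, 94.3 and 90.0 CPM in the control mice and 95.2, 101.4 and 99.2 CPM in the PLDP mice, in the order of mice given above. Every PLDP mouse was above every control mouse, although PLDP mouse 17 exceeded control mouse 2 by less than 0.1 CPM. Dagla was the only gene of the 10 whose groups did not overlap, and 14.2% of all features tested had no overlap in either direction (7.29% with the PLDP mice higher and 6.9% with them lower). Its mean was 93.1 ± 2.78 CPM under the control diet and 98.6 ± 3.12 CPM under PLDP (SD, n = 3), and this difference did not pass the test. A log2 fold change of 0.082 was fitted (SE 0.046, unadjusted p = 0.0915, adjusted p = 0.644 by edgeR), with a 95% confidence interval from -1.02% to 13.3%.

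Daglb (ENSMUSG00000039206, chromosome 5 from 143464584 to 143505942, plus strand) had 39.2, 35.2 and 35.8 CPM in the control mice and 39.1, 39.4 and 37.5 CPM in the PLDP mice. Control mouse 2 lay among the PLDP mice and the other control mice below them. Daglb had a log2 fold change of 0.075 (SE 0.060, adjusted p = 0.772). Of the 9567 exon bases of Daglb, 2309 (24.1%) are shared with exons of Rac1 on the opposite strand. Whether the counting used strand is not given in the sources used here, so reads of both genes may not be separated there. Rac1, a small GTPase gene, had 244.6 ± 9.31 CPM in the control mice and 239.6 ± 1.63 CPM under PLDP (SD, n = 3), and it was not called either.

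Mgll, Abhd6 and Abhd12 encode the serine hydrolases that break down 2-AG. Mgll, monoacylglycerol lipase, is known to carry out most of this hydrolysis in brain (ENSMUSG00000033174, chromosome 6 from 88724412 to 88828360, plus strand). It had 198.5, 195.5 and 189.9 CPM in the control mice and 205.1, 196.2 and 202.0 CPM in the PLDP mice. PLDP mouse 22 fell among the control mice and the other PLDP mice lay above them. The log2 fold change of Mgll was 0.047 (SE 0.039, adjusted p = 0.788), with a 95% confidence interval from -2.51% to 9.43%.

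Abhd6 encodes a membrane enzyme that hydrolyzes 2-AG on the postsynaptic side (ENSMUSG00000025277, chromosome 14 from 8002902 to 8056763, plus strand). It had 61.6, 57.7 and 58.5 CPM in the control mice and 58.2, 68.6 and 63.5 CPM in the PLDP mice. PLDP mice 22 and 26 were above the control mice, and PLDP mouse 17 was within their range. Abhd6 had the largest log2 fold change of the 10 genes, 0.099 (SE 0.060, unadjusted p = 0.114, adjusted p = 0.675 by edgeR), with a 95% confidence interval from -1.83% to 16.9%. That size rested on PLDP mouse 22, without which the log2 fold change was 0.036 (unadjusted p = 0.563 by edgeR).

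Abhd12, a lysophospholipase gene of microglia and other cells whose enzyme also acts on 2-AG (ENSMUSG00000032046, chromosome 2 from 150832493 to 150904741, minus strand), had the highest CPM of the 10 genes. It had 261.5, 266.9 and 245.1 CPM in the control mice and 259.9, 243.2 and 247.7 CPM in the PLDP mice. The groups overlapped, with the lowest value in PLDP mouse 22 and the highest in control mouse 5. The fitted log2 fold change was -0.043 (SE 0.043, adjusted p = 0.833), with a 95% confidence interval from -8.85% to 3.37%.

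Whether Dagla and Abhd6 passed the threshold depended on PLDP mouse 17. Without that mouse, Dagla had a log2 fold change of 0.11 (unadjusted p = 0.0244, adjusted p = 0.314 by edgeR) and Abhd6 of 0.16 (unadjusted p = 0.00606, adjusted p = 0.175). These 2 of the 10 genes were then called higher, where 6.86% of all 18848 features tested without that mouse were called higher, 5.69% lower and 12.5% in either direction. Over the 14 alternatives tried, the unadjusted p of Dagla was between 0.0244 and 0.288 and that of Abhd6 between 0.00606 and 0.563, with adjusted p from 0.314 and 0.175 up to 1.0, and none of the other 13 alternatives called either gene. The summed brainstem and spinal cord markers of PLDP mouse 17 (123.2 CPM) were the nearest of the 3 PLDP mice to the control mice, ahead of PLDP mouse 26 (120.6 CPM) and PLDP mouse 22 (87.8 CPM). Of the 6 mice, PLDP mouse 17 also had the highest sums of projection neuron (1904 CPM) and endothelial markers (191.9 CPM) and the lowest of choroid plexus (575.9 CPM), GABA interneuron (968.6 CPM) and astrocyte markers (2571 CPM). The part of any of these in the values of Dagla and Abhd6 was not tested.

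**Figure D2:**
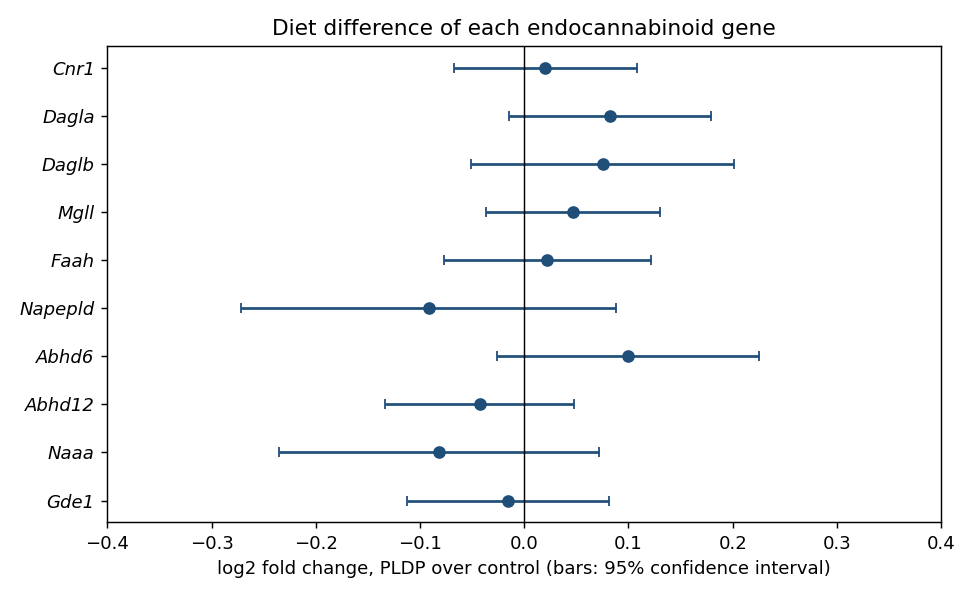
Log2 fold change of each of the 10 genes, PLDP over control, from edgeR's fit to all features, with bars for the 95% confidence interval. All 10 intervals include 0, and the point estimates lie between -0.092 for Napepld and 0.099 for Abhd6.

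Napepld and Gde1 act in the synthesis of anandamide and other N-acylethanolamines. Napepld encodes the phospholipase D that releases them directly from N-acylated phosphatidylethanolamine (ENSMUSG00000044968, chromosome 5 from 21662901 to 21701396, minus strand). It had 14.6, 14.5 and 14.6 CPM in the control mice and 13.0, 14.8 and 13.0 CPM in the PLDP mice, from 243 to 353 counts per mouse. PLDP mouse 22 was the highest of the 6 mice and the other PLDP mice were the lowest, so that the SD was 0.054 CPM in the control mice and 1.04 CPM in the PLDP mice. Napepld had a log2 fold change of -0.092 (SE 0.085, adjusted p = 0.811), and the 95% confidence interval, from -17.2% to 6.28%, was the widest of the 10 genes.

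Gde1 encodes a glycerophosphodiesterase that can release N-acylethanolamines by a further route (ENSMUSG00000033917, chromosome 7 from 118688545 to 118705778, minus strand). It had 163.5, 161.0 and 151.0 CPM in the control mice and 164.1, 150.1 and 156.3 CPM in the PLDP mice. The groups overlapped over almost their whole range, and PLDP mice gave both the highest and the lowest value. Gde1 had a log2 fold change of -0.016 (SE 0.046, adjusted p = 0.958). Of its 1692 exon bases, 13.5% are shared with a predicted transcript on the opposite strand.

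Faah and Naaa encode the amidases that hydrolyze N-acylethanolamines. Faah, fatty acid amide hydrolase, is the main anandamide-degrading enzyme of brain (ENSMUSG00000034171, chromosome 4 from 115967145 to 116017926, minus strand). It had 72.8, 71.5 and 74.8 CPM in the control mice and 76.4, 73.2 and 72.9 CPM in the PLDP mice. The highest value, in PLDP mouse 17, exceeded that of control mouse 10 by a little, and the rest overlapped. The log2 fold change of Faah was 0.022 (SE 0.047, adjusted p = 0.939), with a 95% confidence interval from -5.22% to 8.79%.

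Naaa encodes a lysosomal acid amidase that prefers palmitoylethanolamide (ENSMUSG00000029413, chromosome 5 from 92257659 to 92278170, minus strand). It had 29.7, 29.0 and 25.8 CPM in the control mice and 26.1, 28.5 and 25.2 CPM in the PLDP mice. Control mouse 10 lay among the PLDP mice. Naaa had a log2 fold change of -0.082 (SE 0.073, adjusted p = 0.80), with a 95% confidence interval from -15% to 5.08%.

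The mice did not order the 10 genes in one way. PLDP mouse 22 had the highest CPM of the 6 mice for 4 genes (Dagla, Daglb, Napepld and Abhd6) and the lowest for 2 (Abhd12 and Gde1). PLDP mouse 17 had the highest CPM for Mgll, Faah and Gde1, and control mouse 5 the lowest for Cnr1, Daglb, Faah and Abhd6. The coefficient of variation over the 6 mice was between 2.32% for Faah and 6.98% for Naaa, with a median of 4.04%. The median was 5.02% over the 9287 tested features whose mean CPM lay within the range of the 10 genes. The summed CPM of the 10 genes was 1053 to 1100.1 in the control mice and 1079.6 to 1101.7 in the PLDP mice.

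Levels were compared between genes as CPM per kilobase of exon, since a long transcript gives more reads. Gde1 and Abhd12 were highest, at 93.2 and 90.0 CPM per kilobase on average over the 6 mice, and their ranges overlapped. Mgll followed at 39.0, apart from its neighbors in all mice. Abhd6 (25.9) and Cnr1 (25.4) overlapped with each other and were apart from Dagla at 16.7. Faah (9.40) and Naaa (7.36) came next, each with a range of its own. Daglb (3.94) and Napepld (3.56) were lowest and overlapped. Thus Dagla was 4.23 ± 0.21 times Daglb in the control mice and 4.25 ± 0.18 times under PLDP (SD, n = 3). With the longest coding transcript as the length, Daglb had 8.11, Faah 19.2 and Naaa 11.3 CPM per kilobase, more than 1.5 times their values above. Abhd12 was then above Gde1 and Faah above Dagla, both without overlap. Cnr1 (28.2) was above Abhd6 (27.6) on average, but their ranges still overlapped. The Dagla to Daglb ratio became 2.10 ± 0.10 in the control mice and 2.11 ± 0.089 under PLDP (SD, n = 3).

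**Figure D3:**
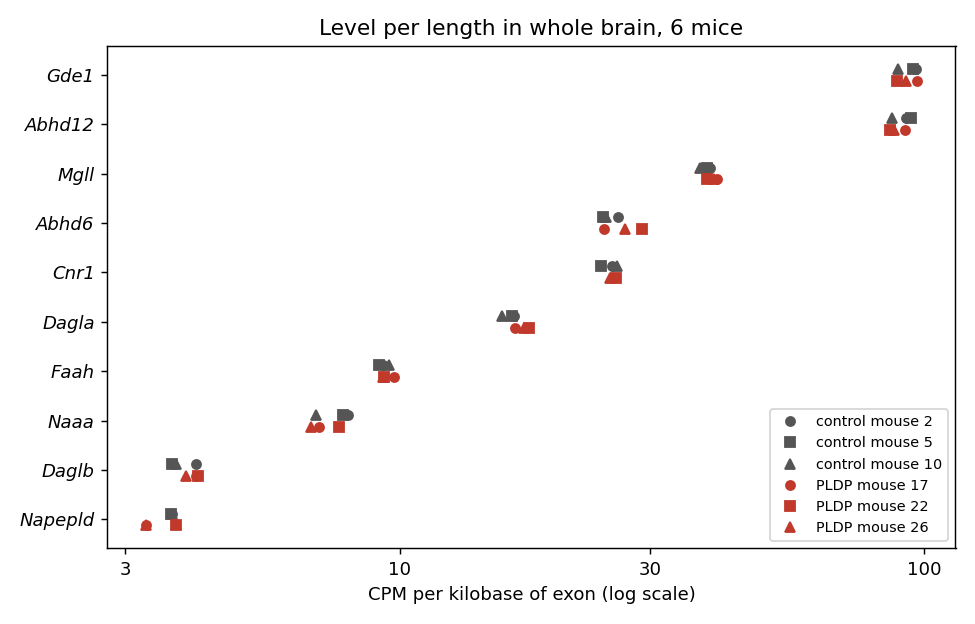
Level of each of the 10 genes as CPM per kilobase of exon (log axis), with 1 point per mouse, control mice in grey and PLDP mice in red, genes ordered by their mean. The levels span from 3.28 CPM per kilobase for Napepld to 97.0 for Gde1, and the spacing between most genes exceeds the spread between mice.

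Promoter windows of the 250 bases before a RefSeq transcription start (GRCm38.p6) were given for 8 of the 10 genes, in 12 windows. The windows of Gde1 and Napepld are shown because these genes lay at the top and the bottom of the order by CPM per kilobase of exon. Gde1 overlapped Abhd12 there and was below it by longest coding transcript. The RefSeq start of Napepld (21701622) lies outside the annotated gene used above, which on the minus strand begins at 21701396. Its first transcribed bases were not found in the annotated transcripts, while those of Gde1 were. Capitals mark the GC box GGGCGG or its reverse complement CCGCCC. The Gde1 window is chr7:118705739-118705988 and the Napepld window chr5:21701623-21701872, both on the minus strand.
Gde1: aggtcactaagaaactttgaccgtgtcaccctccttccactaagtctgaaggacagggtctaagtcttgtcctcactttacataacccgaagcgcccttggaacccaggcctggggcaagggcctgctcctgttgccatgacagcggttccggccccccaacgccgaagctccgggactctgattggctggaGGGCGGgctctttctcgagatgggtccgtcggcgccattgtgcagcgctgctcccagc
Napepld: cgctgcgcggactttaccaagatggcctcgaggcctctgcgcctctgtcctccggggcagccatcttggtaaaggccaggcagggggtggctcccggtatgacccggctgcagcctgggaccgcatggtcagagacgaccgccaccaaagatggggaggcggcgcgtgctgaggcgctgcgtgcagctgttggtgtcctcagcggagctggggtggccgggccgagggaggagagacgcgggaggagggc
The Gde1 window holds 14 CpG dinucleotides and the Napepld window 21, against a median of 6 over all 32851 windows in the reference table. The GC box was in 6 of the 12 windows, those being 1 each of Cnr1, Mgll, Faah, Abhd6, Naaa and Gde1, and in 32.7% of all windows. The TATA box TATAAA was in 0 of the 12 and in 12.4% of all windows, and the cAMP response element TGACGTCA was in 0 of the 12 and in 1.55% of all windows, each searched on both strands. Windows of 1 gene can overlap, and a match of letters is not a binding site.

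Within the 2-AG enzymes, the ratio of summed diacylglycerol lipase level (Dagla and Daglb) to summed hydrolase level (Mgll, Abhd6 and Abhd12), in CPM per kilobase, was 0.131, 0.128 and 0.13 in the control mice and 0.132, 0.141 and 0.137 in the PLDP mice. The PLDP mice were all above the control mice, PLDP mouse 17 by less than 0.001. Of the summed hydrolase level, Mgll made up 24.8% ± 0.33 in the control mice and 25.5% ± 0.36 under PLDP (SD, n = 3). These values did not overlap either, but control mouse 10 (25.11%) and PLDP mouse 22 (25.13%) were almost equal. Abhd12 made up 59.0% ± 0.93 and 57.2% ± 1.33, and Abhd6 16.2% ± 0.62 and 17.3% ± 1.6 (SD, n = 3), with overlap. The ratio of Dagla to Mgll was 0.423 ± 0.0038 under the control diet and 0.434 ± 0.023 under PLDP (SD, n = 3), also with overlap. Both quantities without overlap were among 8 ratios computed from the values above, and all are given without a test. Of the single features tested, 14.2% had no overlap between the diets. For the N-acylethanolamine enzymes, the ratio of Faah to Naaa was 1.24 ± 0.12 under the control diet and 1.33 ± 0.094 under PLDP, and that of Gde1 to Napepld was 25.5 ± 1.07 and 27.1 ± 3.01 (SD, n = 3). Both overlapped between the diets.

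Around these 10 genes, 51 others of endocannabinoid signaling were listed, of which 43 passed the filter on low counts. Of these, 2 were called higher and 3 lower under PLDP, which is 11.6% against 8.6% of all features, and 0 passed after adjustment over all features. The median log2 fold change of the 43 genes was -0.013. In 8 of them the groups did not overlap, where 14.2% of all features did not. The 5 called genes were Kcnj6 and Chrm1, which were higher, and Fabp5, Alox12 and Pla2g4e, which were lower. Without PLDP mouse 17, 6 were called higher, with Cacna1a, Cacna1b, Gnao1 and Gnaq added, and 5 lower, with Fabp3 and Fabp7 added, where 6.86% of all features tested without that mouse were called higher and 5.69% lower. Fewer were called lower without control mouse 5 (0), without control mouse 2, PLDP mouse 22 or PLDP mouse 26 (1 each) and without control mouse 10 (2).

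Among the 10 tested genes listed as presynaptic effectors of CB1, Kcnj6 was called. It encodes a subunit of the G protein-gated potassium channel that CB1 and other receptors open. On which side of the synapse the channel lies was not measured. Kcnj6 had 55.1, 51.0 and 54.9 CPM in the control mice and 57.7, 63.9 and 65.1 CPM in the PLDP mice, without overlap. The log2 fold change of Kcnj6 was 0.21 (SE 0.057, unadjusted p = 0.0016, adjusted p = 0.261 by edgeR), and it stayed under an unadjusted 0.05 in all 14 alternatives. Without PLDP mouse 17 its log2 fold change was 0.27 and its adjusted p by edgeR 0.0122, the lowest of the 14 alternatives, whose highest was 0.689. Kcnj3, which encodes a partner subunit, was listed at 0 in all 6 mice. Whether its reads were lost in the counting was not tested, and the 0 is not read as absence of its transcript. Of the inhibitory G protein, adenylyl cyclase and presynaptic calcium channel genes in this group, edgeR's quasi-likelihood test called 0. Cacna1a, a presynaptic calcium channel gene, had 217.7 ± 2.25 CPM in the control mice and 230.6 ± 8.70 CPM under PLDP (SD, n = 3), without overlap (log2 fold change 0.083, unadjusted p = 0.0536, adjusted p = 0.588 by edgeR), and was called higher by limma voom, with upper-quartile factors and without PLDP mouse 17.

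Of the 8 genes that drive 2-AG synthesis on the postsynaptic side, Chrm1 alone was called. It encodes the M1 muscarinic receptor, which acts through Gq and phospholipase C. It had 110.4, 112.3 and 111.3 CPM in the control mice and 119.1, 124.3 and 122.6 CPM in the PLDP mice, without overlap. Chrm1 had a log2 fold change of 0.13 (SE 0.042, unadjusted p = 0.0059, adjusted p = 0.357 by edgeR), under an unadjusted 0.05 in all 14 alternatives. The metabotropic glutamate receptor gene Grm5 had a log2 fold change of -0.018, and Plcb1 and Plcb4, phospholipase C genes, of 0.032 and 0.067.

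The 3 genes called lower each lost the call in some alternatives. Fabp5, a fatty acid binding protein gene whose product carries endocannabinoids in the cytosol, had 70.6, 75.5 and 67.4 CPM in the control mice and 68.1, 61.1 and 66.1 CPM in the PLDP mice, and the groups overlapped. Its log2 fold change was -0.13 (SE 0.056, unadjusted p = 0.0333, adjusted p = 0.527 by edgeR). Leaving out control mouse 2, control mouse 5 or PLDP mouse 22 ended the call, at -0.14, -0.086 and -0.087. Fabp3 and Fabp7, the other carriers listed, had log2 fold changes of -0.046 and -0.11 and were not called.

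Pla2g4e, a calcium-dependent N-acyltransferase gene whose product makes the precursor of anandamide, had 10.2, 10.4 and 9.46 CPM in the control mice and 9.35, 9.01 and 6.57 CPM in the PLDP mice. PLDP mouse 26 was the lowest by far. The log2 fold change was -0.26 (SE 0.12, unadjusted p = 0.0448, adjusted p = 0.565 by edgeR), and without PLDP mouse 26 it was -0.13 and not called. DESeq2, upper-quartile factors and leaving out control mouse 2 or control mouse 5 also ended the call, with log2 fold changes of -0.27, -0.26, -0.25 and -0.23. Alox12, a lipoxygenase gene, had low counts, 18 to 40 per mouse. It had 1.11, 1.81 and 1.55 CPM in the control mice and 1.07, 0.92 and 0.96 CPM in the PLDP mice. Its log2 fold change of -0.60 (unadjusted p = 0.0344, adjusted p = 0.532 by edgeR) was not called by DESeq2 (-0.60) or without control mouse 5 (-0.43), control mouse 10 (-0.57), PLDP mouse 22 (-0.55) or PLDP mouse 26 (-0.59).

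No gene was called among 3 tested receptors other than CB1 and among 7 partners of CB1. Trpv2, a cation channel gene, had the highest CPM of these receptors, 18.4 ± 0.71 in the control mice and 17.7 ± 0.84 under PLDP (SD, n = 3), with a log2 fold change of -0.053. Gprasp1, which encodes a protein that sorts receptors after endocytosis, had the highest CPM of the partners, 589.6 ± 18.2 and 584.3 ± 29.4 (SD, n = 3), with a log2 fold change of -0.013. The second cannabinoid receptor gene, Cnr2, had 1 to 6 counts per mouse and was not tested, and neither were Gpr55 and Trpv1, with at most 7 and 5 counts. Gpr18 and Gpr119 were listed at 0 in all mice.

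**Figure D4:**
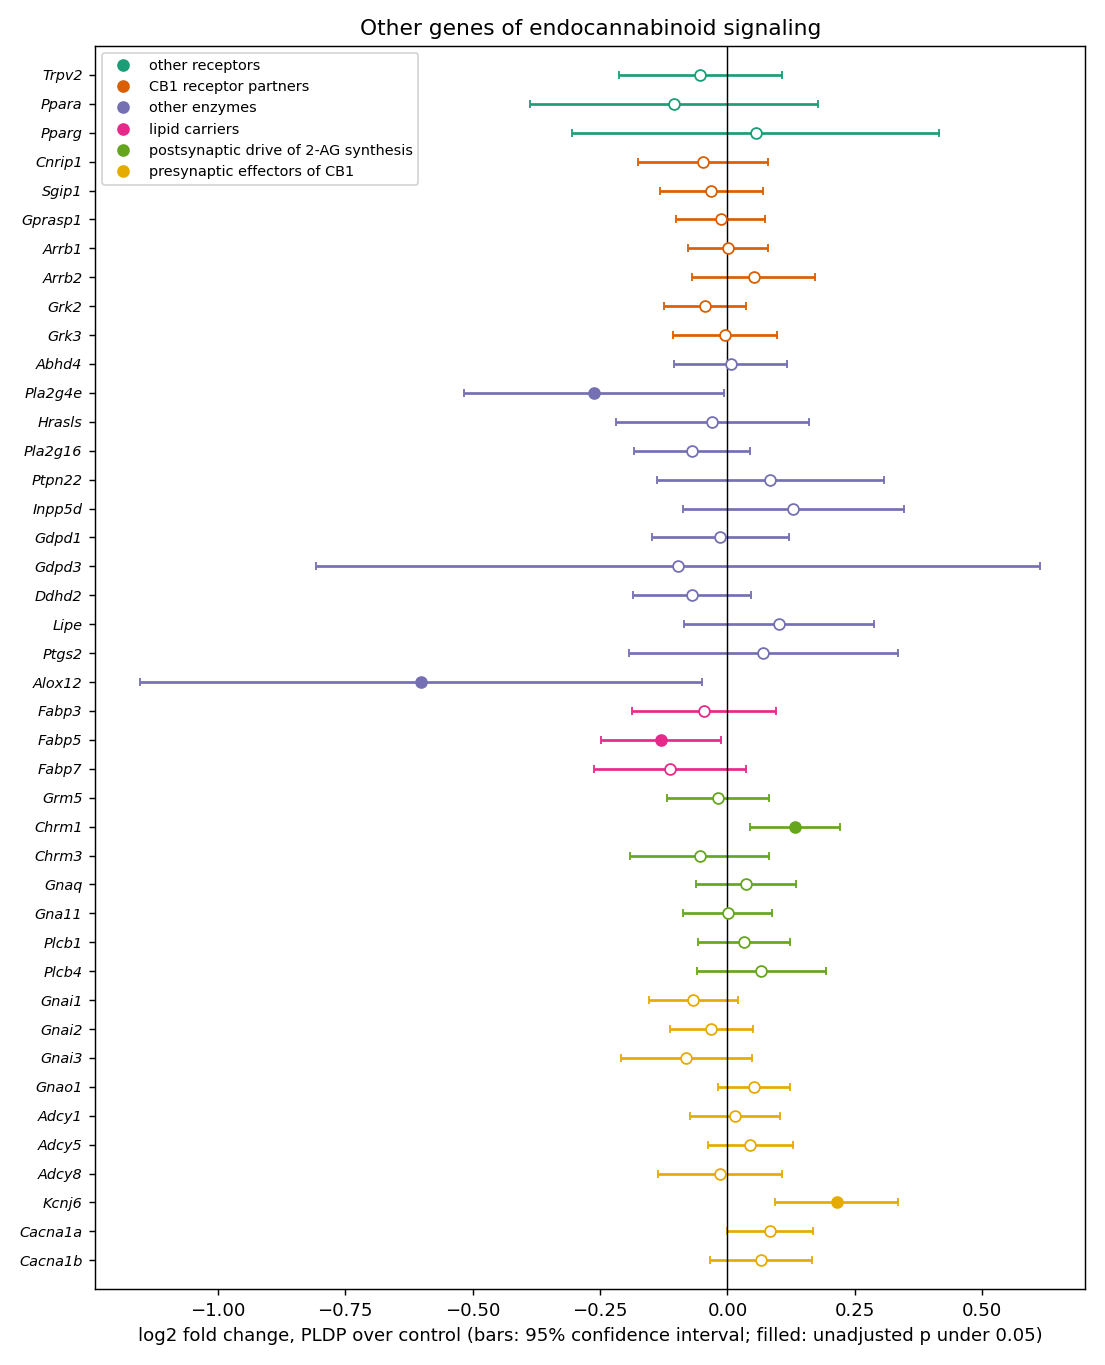
Log2 fold change of 42 of the 43 tested genes of endocannabinoid signaling outside the 10, PLDP over control, colored by group, with bars for the 95% confidence interval and filled points for an unadjusted p under 0.05. The 5 filled points are Kcnj6 (0.21) and Chrm1 (0.13) on the right and Fabp5 (-0.13), Pla2g4e (-0.26) and Alox12 (-0.60) on the left.

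The genes whose pattern over the 6 mice was most like that of Cnr1 and of Dagla were sought among 14488 tested genes with a symbol, by the root mean square difference of log2 CPM centered on each gene's mean. For Cnr1 these were Mllt10, Ppid and Tbc1d30, with differences of 0.010, 0.011 and 0.011, where the median over all genes compared was 0.090. For Dagla they were Zswim4, Ptprs and Adgrf5, with differences of 0.0085, 0.012 and 0.013 and a median of 0.10. Of these 6 genes, Ptprs was called (log2 fold change 0.081, unadjusted p = 0.0469 by edgeR), where 8.6% of all features were. All 6 were picked as the closest in these same values, so differences far below the median follow from that choice.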

How the data were processed

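The authors deposited 1 file of raw read counts per mouse, without normalization, from stranded libraries of polyadenylated RNA. The submitters' processing notes name cutadapt 2.9, HISAT2 2.2.0, featureCounts 2.6.0 and DESeq2 1.6.3, and the builds GRCh38 and GRCm38 without a role. Whether the counting used strand is not given in the sources used here. Symbols, exon lengths and coordinates were taken by Ensembl identifier from GENCODE M21 (GRCm38), which holds 54777 of the 55034 identifiers. The 5320 numbered features were kept. One listed neuronal marker was not analysed here. Values of some listed genes are not reported here.

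The tests were run in edgeR 4.0.16 (R 4.3.3): filterByExpr (minimum count 10, minimum total 15), TMM factors, and the quasi-likelihood test with diet as the only term, fitted to all features. Genes with an unadjusted p under 0.05, the threshold of the study, were counted as called, with Benjamini-Hochberg adjustment over all features beside it. Standard errors and 95% intervals were derived from the test statistic and its degrees of freedom. CPM were TMM-scaled. An exact permutation test of 1 gene could not give a two-sided p below 0.1 with these groups. Alternatives were other filters and scaling factors, DESeq2 1.42.0, limma 3.58.1 (voom), the likelihood ratio test and leaving out each mouse. The scripts were tested on simulated data.

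The genes, lists and tests were chosen with earlier results of these data known. The text names all 10 genes, each other pathway gene called, the gene with the highest CPM of each pathway group without a call, up to 3 markers of a list with at least 3 calls, and the 3 genes closest in pattern to Cnr1 and to the gene with the smallest p. Other genes named beside them were chosen after their values were seen.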

Additional observations from a re-analysis of the deposited data

How the results depend on the processing

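Of the 10 endocannabinoid genes, 0 were called higher or lower under each of the 8 other filters, scalings and tests. Leaving out 1 mouse gave 0 to 2 higher and 0 lower, the 2 being Dagla and Abhd6 without PLDP mouse 17. Among the wider pathway genes, leaving out 1 mouse gave 2 to 6 higher and 0 to 5 lower, DESeq2 gave 1 lower, and limma voom and upper-quartile factors gave 3 higher, Cacna1a being added. Over all features, leaving out 1 mouse gave 640 to 1293 higher and 493 to 1072 lower. DESeq2 called 564 higher and 362 lower. With no filter on low counts, 1314 were higher and 1046 lower of 36099 features, against 913 and 685 of 18580 in the main run. Near 0, leaving out 1 mouse changed the sign of the log2 fold change for Cnr1 (range -0.0093 to 0.043, negative without control mouse 5), Gde1 (-0.05 to 0.014, positive without control mouse 2, at 0.0058, or PLDP mouse 22) and Gprasp1 (-0.051 to 0.022, positive without control mouse 10, at 0.0091, or PLDP mouse 17). The cause was not tested. The other fold changes recomputed kept their sign in every alternative run. The length behind the level per kilobase was an alternative added after seeing the data. No paired analysis was possible because the diets share no mouse numbers. The confidence interval of each gene gives the changes that 3 mice per diet leave possible.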
